A study of Mus musculus with 2 samples.

Results

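Nr4a1, Nr4a2 and Nr4a3 are the 3 members of the Nr4a family of orphan nuclear receptors, and their transcripts were followed in single lung ILC2s from WT and Pac1-KO mice. They were 3 of the 32285 genes in each count table and were read in barcodes that had 500 or more genes detected and no more than 10% of mitochondrial UMIs (unique molecular identifiers, each of which stands for 1 captured transcript). ILC2s, the innate lymphoid cells of group 2, reside in tissues and make type 2 cytokines without an antigen receptor. The cells were sorted from unstimulated mice on the C57BL/6J background as live, Lineage-, CD90.2+, ST2+ and Sca-1+, pooled over the animals of a genotype and run as 1 droplet library per genotype. Pac1-KO mice lack PAC1, a phosphatase encoded by Dusp2, in all their cells, so differences that begin in ILC2s and in other cells of the lung cannot be told apart. The study used young adult mice matched for age and sex, and the pooled animals of a genotype could not be separated. Its lung cells were released by warm enzyme digestion with shaking before the sort. The part of this handling in the levels below was not tested.

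Nr4a proteins are transcription factors without a known physiological ligand, and what they do is set largely by how much of them a cell makes. Their genes are immediate-early genes: transcription starts within minutes of a receptor signal, through cAMP and CREB, calcium and NFAT, or MAP kinases, without new protein being made. In T cells they are known for marking recent antigen receptor signalling and for restraining effector function. The receptors bind DNA as monomers at the NBRE site, AAAGGTCA, and cAMP reaches many target genes through the cAMP response element (CRE), TGACGTCA, or its half-site TGACG.

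The WT library held 10866 barcodes, of which 8394 passed with 54579034 UMIs and a median of 4186.5 UMIs per barcode. In the Pac1-KO library 7087 of 9495 barcodes passed, with 58338886 UMIs and a median of 5577. Since each genotype was 1 library, the differences below have no replicates behind them and are not tested, and each 95% interval covers counting error only. Dusp2 had 1419 UMIs in WT and 5 in Pac1-KO. At least 3 of 10 ILC2 markers were found in 97.0% of WT and 96.8% of Pac1-KO passing barcodes. Of the defining T cell markers, Cd8a was at 0 UMIs and Cd4 at 1 UMI in each library, and 3.69% (WT) and 2.62% (Pac1-KO) of barcodes had Cd3e. Of 8 T cell markers, 2 or more were nevertheless present in 54.0% of WT and 63.9% of Pac1-KO barcodes, and 3 or more in 22.6% and 22.3%. The main ones were Trbc1 (60.0% of WT and 71.9% of Pac1-KO barcodes), Trbc2 (61.7% and 74.3%) and Cd3g (33.5% and 26.7%). The ratios below are also given without the barcodes with 2 or more T cell markers. Over all 8 markers the summed level was 695 CPM in WT and 954 CPM in Pac1-KO. Single markers of other types were also spread over many barcodes, such as Ighm (23.8% and 33.5%), Pecam1 (17.5% and 19.7%) and Hba-a1 (8.93% and 21.5%), and the 5 erythroid markers summed to 76.2 CPM in WT and 269 CPM in Pac1-KO. Barcodes with 3 or more markers of a type other than ILC2 or T cell made up at most 0.353% of a library for each such type, and the part of such RNA in the results was not tested. The libraries shared 29 barcodes, 15 of them passing in both.

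The DNA just before each gene's start is shown because cAMP response elements are known control sites of this family. Nr4a1 lies on chromosome 15 (101254269 to 101274795, plus strand), Nr4a2 on chromosome 2 (57106830 to 57124003, minus strand) and Nr4a3 on chromosome 4 (48045153 to 48086447, plus strand) of GRCm38, each with up to 8 exons, and no other annotated gene overlaps any of them. All 3 members matched a RefSeq promoter entry (GRCm38.p6). The sequences run 5′ to 3′ on the gene's strand and end at the base before the first annotated exon base of the window, with each TGACG half-site, or its reverse complement CGTCA, in capitals. They cover chr15:101266596-101266845 for Nr4a1, which is within an intron of a longer Nr4a1 transcript, chr2:57124004-57124253 for Nr4a2, and chr4:48045055-48045152 for Nr4a3, whose last 152 upstream bases lie in an annotated exon and are left out.

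Nr4a1: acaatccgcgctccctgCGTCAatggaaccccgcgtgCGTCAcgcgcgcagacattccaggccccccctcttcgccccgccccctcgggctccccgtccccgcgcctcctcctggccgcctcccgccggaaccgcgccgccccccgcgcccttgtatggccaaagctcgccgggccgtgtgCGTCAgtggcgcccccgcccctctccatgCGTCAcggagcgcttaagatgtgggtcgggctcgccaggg

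Nr4a2: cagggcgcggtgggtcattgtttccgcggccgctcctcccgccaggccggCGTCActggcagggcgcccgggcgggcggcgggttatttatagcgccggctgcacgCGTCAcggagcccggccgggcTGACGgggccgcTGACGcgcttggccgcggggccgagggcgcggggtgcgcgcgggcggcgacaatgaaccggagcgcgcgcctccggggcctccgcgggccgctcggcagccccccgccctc

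Nr4a3: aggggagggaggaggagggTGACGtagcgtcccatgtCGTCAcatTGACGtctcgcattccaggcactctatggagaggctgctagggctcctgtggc

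Each member held 4 half-sites in the 250 bases before its RefSeq start, counted on both strands. Of the 32851 mouse promoter windows of the same length, 17.8% held at least 1 half-site and 0.137% (45 windows) held 4 or more. Relative to the start, the sites began at −233, −213, −69 and −40 in Nr4a1, at −200, −144, −123 and −111 in Nr4a2, and at −231, −213, −205 and −147 in Nr4a3, the last of these in the stretch not shown. The full 8-base CRE, found in 1.55% of windows, was in none of the 3, nor was the NBRE (1.34% of windows) or the AP-1 site TGANTCA (6.75%). The NFAT core GGAAA was found once, in Nr4a2, against 55.6% of all windows. A match of letters is a description of the window and does not show binding.

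Nr4a1, also known as Nur77, was the most abundant member in both libraries. It had 102721 UMIs in WT and 66098 in Pac1-KO, or 1882 CPM (UMIs of the gene per 1e6 UMIs of the library; 1871 to 1894) and 1133 CPM (1124 to 1142). Among all genes this was rank 97 in WT and rank 139 in Pac1-KO. As sequenced, 87.2% of WT barcodes and 78.2% of Pac1-KO barcodes had a UMI of Nr4a1. Because depth differed, each barcode with at least 2000 UMIs was also thinned at random to exactly 2000, which left 7480 WT and 6470 Pac1-KO barcodes. At that equal depth 80.3% of WT barcodes (79.4 to 81.2) and 63.4% of Pac1-KO barcodes (62.2 to 64.5) had Nr4a1.

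Nr4a3, also known as Nor1, differed most between the libraries by the ratio of its levels. Its level was 706 CPM (699 to 713) in WT, from 38529 UMIs, and 355 CPM (351 to 360) in Pac1-KO, from 20736 UMIs. The share of thinned barcodes with a UMI was 47.9% (46.8 to 49.1) in WT and 29.8% (28.7 to 31.0) in Pac1-KO. By the difference of shares the order of Nr4a1 and Nr4a3 depended on depth: thinned to 1000 UMIs it was −17.8 points for Nr4a1 and −15.3 points for Nr4a3, and thinned to 2000 it was −16.9 and −18.1. Nr4a2, also known as Nurr1, differed least by the ratio. It stood at 506 CPM (500.1 to 512) in WT and 419 CPM (414 to 425) in Pac1-KO, from 27617 and 24473 UMIs, and was found in 44.6% (43.5 to 45.7) and 34.7% (33.6 to 35.9) of thinned barcodes.

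The order of the members in passing barcodes thus was not the same in the 2 libraries. WT had Nr4a1, then Nr4a3, then Nr4a2, and Pac1-KO had Nr4a1, then Nr4a2, then Nr4a3, with no overlap of the counting intervals between neighbours in either order. Poly-A capture counts 3′ ends, so these levels compare transcript numbers between genes to a first order without a correction for length. Summed over the family there were 3094 CPM (3079 to 3109) in WT and 1908 CPM (1897 to 1919) in Pac1-KO. Nr4a1 made up 60.8% of the family's UMIs in WT and 59.4% in Pac1-KO. Nr4a3 made up 22.8% in WT and 18.6% in Pac1-KO, and Nr4a2 16.4% and 22.0%.

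**Figure D1:**
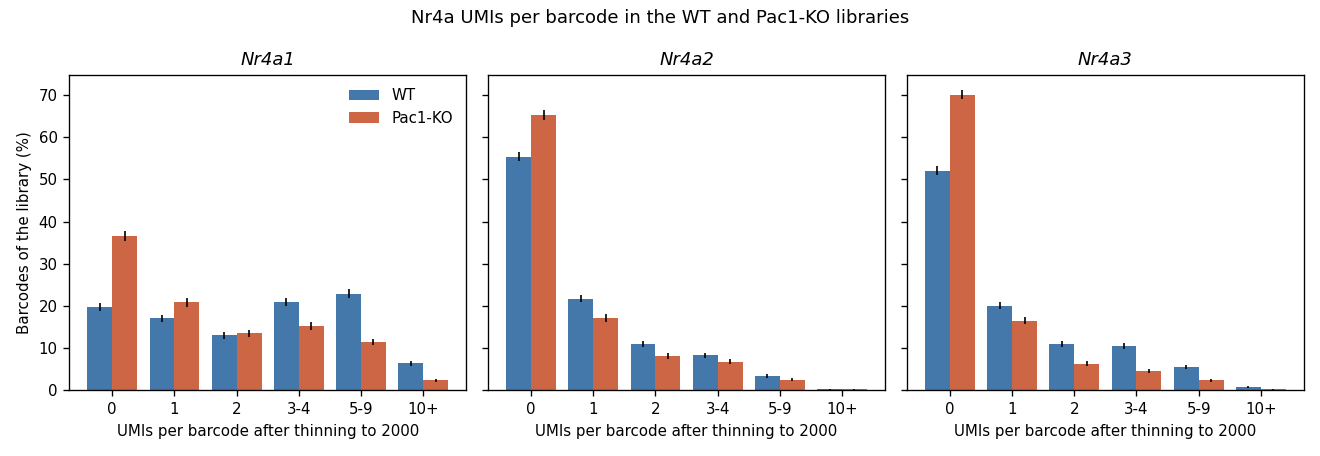
Share of barcodes (%) by the number of UMIs of each Nr4a member after thinning every barcode to 2000 UMIs, in the WT (7480 barcodes) and Pac1-KO (6470 barcodes) libraries; bars are shares and error bars exact 95% intervals. The Pac1-KO library has more barcodes at 0 for each member, and for Nr4a1 fewer at 5 to 9 UMIs (11.4% against 22.9%).

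All 3 members had a lower level in Pac1-KO. The log2 ratio of Pac1-KO over WT was −0.99 (−1.01 to −0.97) for Nr4a3, −0.73 (−0.75 to −0.72) for Nr4a1 and −0.27 (−0.30 to −0.25) for Nr4a2. Over the 12427 genes with at least 50 UMIs the median gene lay at 0.19, and relative to it the values were −1.18, −0.92 and −0.46. Genes lower by over 1.5-fold relative to the median gene made up 12.8% of all genes compared, and genes higher by that much made up 8.2%. Nr4a1 and Nr4a3 were among the lower ones and Nr4a2 was not. By this ratio Nr4a3 stood at percentile 3.36 of all genes, Nr4a1 at 5.99 and Nr4a2 at 17.7. Without the barcodes with 2 or more T cell markers the ratios as counted were −0.99, −0.74 and −0.38, with Nr4a2 further below 0. The median mitochondrial share of passing barcodes was 2.50% in WT and 3.27% in Pac1-KO, and 171 WT and 441 Pac1-KO barcodes were over the limit of 10%. With at least 1000 genes and at most 5% mitochondrial UMIs the ratios were −0.99 for Nr4a3, −0.72 for Nr4a1 and −0.27 for Nr4a2.

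The difference was present at each depth. In barcodes with 2000 to under 4000 UMIs before thinning, the mean number of Nr4a1 UMIs per 2000 was 2.84 in WT and 1.56 in Pac1-KO. In barcodes with 8000 or more it was 4.23 and 2.37, so both libraries had more Nr4a1 in deep barcodes while the log2 ratio stayed between −0.86 and −0.84 over the 3 depth bands. The corresponding ratios lay between −1.26 and −1.03 for Nr4a3 and between −0.58 and −0.27 for Nr4a2.

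**Figure D2:**
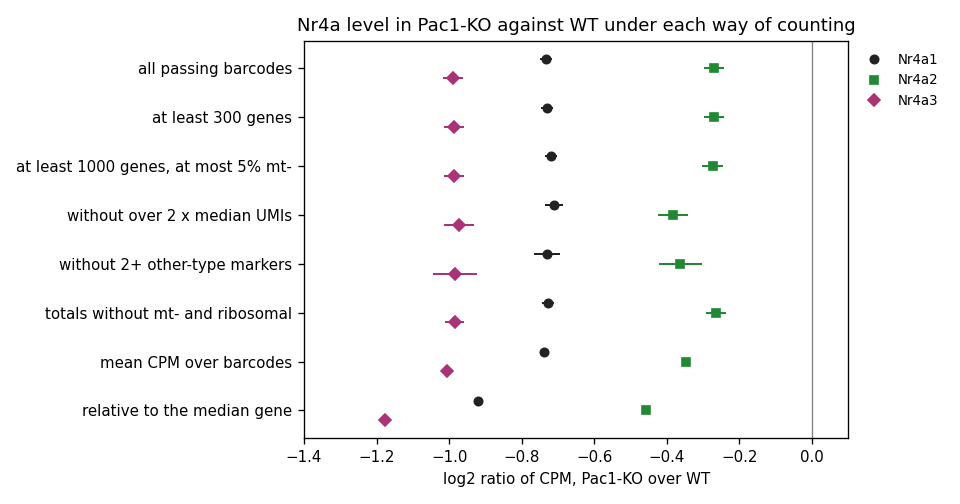
Log2 ratio of CPM in Pac1-KO over WT for each member under 8 ways of selecting barcodes or scaling; symbols are values and lines 95% counting intervals where one can be computed. Every value lies below 0, in the order Nr4a3, Nr4a1, Nr4a2 from lowest to highest.

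The difference in the mean can be split into the share of barcodes with a UMI and the mean within them. How it splits also depends on abundance and depth, since Nr4a1 was found in most WT barcodes and Nr4a2 in fewer, so the split is a description and the members are not compared by it. For Nr4a2, barcodes with a UMI carried a mean of 2.12 Nr4a2 UMIs per 2000 in WT and 2.11 in Pac1-KO. For Nr4a1 the positive barcodes held 4.27 in WT and 3.18 in Pac1-KO. For Nr4a3 they held 2.51 and 2.03. On the log2 scale the share of positive barcodes gave −0.36 of the −0.36 for Nr4a2, −0.34 of the −0.76 for Nr4a1 and −0.68 of the −0.99 for Nr4a3. The transcripts were spread unevenly: the tenth of barcodes with the most UMIs of a member held 45.0% of all Nr4a1 UMIs in WT and 48.2% in Pac1-KO, and 53.7% and 62.2% of all Nr4a3 UMIs. At equal depth the highest single barcode had 41 Nr4a1 UMIs of 2000 in WT and 24 in Pac1-KO.

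Free RNA can place a UMI in a cell that does not make the transcript, and no cell type known to lack all 3 genes was present in numbers. Barcodes with 3 or more B cell markers numbered 10 in WT and 25 in Pac1-KO. Nr4a1 was found in 4 of the former (40.0%; 12.2 to 73.8; median depth 4297.5 UMIs) and 14 of the latter (56.0%; 34.9 to 75.6; median 5414 UMIs) at equal depth. The WT share was below that of all WT barcodes, and the Pac1-KO interval included that of all Pac1-KO barcodes. The part of free RNA in the shares was not tested.

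Among nuclear receptors the family was prominent. Of 49 nuclear receptor genes, 27 had at least 50 UMIs over both libraries. Rora, which ILC2s need for their development, ranked first in both libraries (2265 CPM in WT and 1686 CPM in Pac1-KO) and Nr4a1 second. Nr4a3 ranked 3 in WT and 6 in Pac1-KO. Nr4a2 ranked 5 and 4, next to the glucocorticoid receptor gene Nr3c1 (595 and 490.0 CPM). The 3 Nr4a genes supplied 45.3% of all nuclear receptor UMIs in WT and 37.8% in Pac1-KO. Of the 27 receptor genes, 19 lay below the median gene in Pac1-KO and 8 above, with a median of −0.23, and 5 were lower by over 1.5-fold, against the 12.8% of all genes: besides Nr4a1 and Nr4a3 these were Rora at −0.61, the clock gene Nr1d1 at −0.74 and Rorb, with 46 UMIs in WT and 12 in Pac1-KO. Higher by over 1.5-fold were 2 receptor genes, Nr2f6 at 0.85 and Nr2c1 at 0.63, against 8.2% of all genes.

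The members were found together more often than their single shares would give. In WT, 25.7% of thinned barcodes (24.7 to 26.7) held all 3, where the product of the 3 shares was 17.2%, a ratio of 1.5 (1.43 to 1.57). In Pac1-KO 14.1% (13.3 to 15.0) held all 3 against 6.57%, a ratio of 2.15 (2.02 to 2.30). Barcodes with none of the 3 were also in excess, at 12.9% against 5.68% in WT and 27.1% against 16.8% in Pac1-KO. All combinations of 1 or 2 members were below the product in both libraries. Nr4a2 with Nr4a3 but no Nr4a1 was found in fewer barcodes than any other combination.

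**Figure D3:**
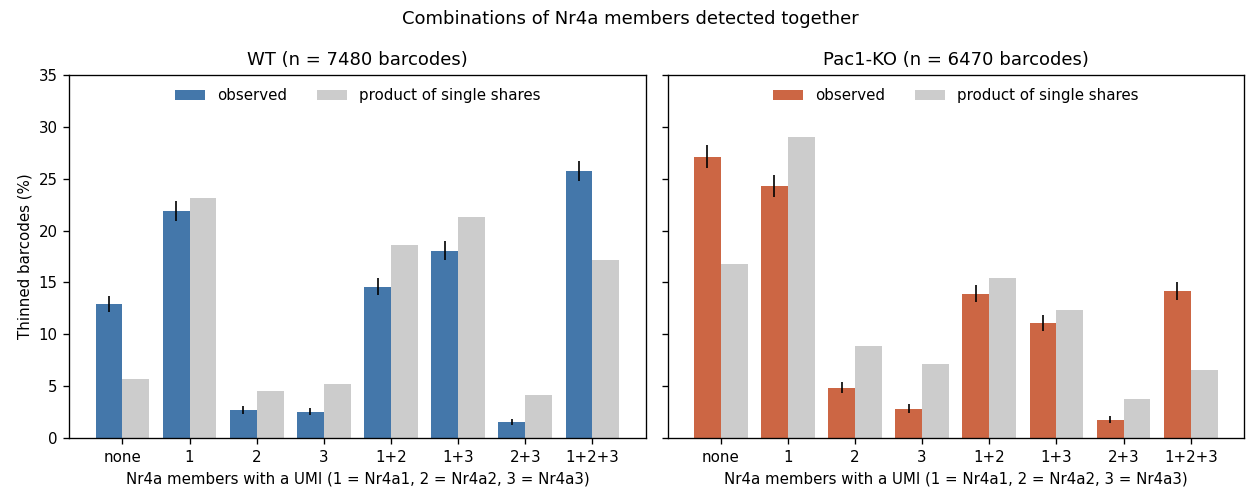
Share of thinned barcodes (%) with each combination of Nr4a members in the WT and Pac1-KO libraries; coloured bars are observed shares with exact 95% intervals, grey bars the product of the single shares. The excess is in the combinations none and all 3 of both libraries.

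Of the pairs, Nr4a2 with Nr4a3 had the highest ratio of observed to product, 1.28 (1.22 to 1.33) in WT and 1.54 (1.44 to 1.63) in Pac1-KO. Nr4a1 with Nr4a3 had 1.14 and 1.33, and Nr4a1 with Nr4a2 had 1.13 and 1.27. At 8000 or more UMIs before thinning the WT intervals of all 3 pairs included 1, with 1.06 (0.990 to 1.14) for Nr4a2 with Nr4a3, 1.03 (0.966 to 1.09) for Nr4a1 with Nr4a2 and 1.02 (0.967 to 1.08) for Nr4a1 with Nr4a3. The Pac1-KO pairs at that depth had 1.21 (1.11 to 1.32), 1.11 (1.03 to 1.19) and 1.12 (1.04 to 1.2). Such a ratio has a ceiling that falls as the single shares rise, so ratios are not comparable between libraries or pairs of unequal shares. Depth moved with it: for all 3 members the WT ratio was 1.92 in barcodes with 2000 to under 4000 UMIs, 1.43 at 4000 to under 8000 and 1.10 (1.02 to 1.18) at 8000 or more. The Pac1-KO ratios at those depths were 2.62, 2.79 and 1.39 (1.26 to 1.53). Barcodes with all 3 had a median of 6230 UMIs before thinning in WT and 7728 in Pac1-KO, against 3654 and 5144.5 for barcodes with none.

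Seen from one member to the next, Nr4a1 accompanied the others most often. In WT it was found in 91.4% of barcodes with Nr4a3 and 70.1% of those without, and in Pac1-KO in 84.5% and 54.4%. Nr4a3 was found in 54.6% of WT barcodes with Nr4a1 and 20.8% of those without, and in 39.8% and 12.7% in Pac1-KO. In thinned UMIs the Pearson r between members was lowest for Nr4a2 with Nr4a3 (0.276 in WT and 0.285 in Pac1-KO) and highest for Nr4a1 with Nr4a3 (0.377 and 0.374). Among barcodes with at least 5 Nr4a UMIs of 2000, which were 48.8% of WT and 27.6% of Pac1-KO, Nr4a1 led in 73.4% and 67.5%. Nr4a2 led in 6.88% (6.08 to 7.75) of these WT barcodes and 13.4% (11.8 to 15.1) of the Pac1-KO ones, and Nr4a3 in 11.1% and 9.97%.

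Genes that went along with each member were ranked over the 4005 other genes found in at least 5% of thinned barcodes of both libraries, by the lower of the 2 Pearson correlations of log2(UMI + 1). These correlations are over barcodes of 1 library, which share that library and its depth, and are given as a description. For Nr4a1 the leading gene was Nfkbia, encoding the NF-kB inhibitor IkBα, with r of 0.467 in WT and 0.515 in Pac1-KO. WT barcodes with Nr4a1 had a mean of 7.08 Nfkbia UMIs per 2000 and those without 3.05, and in Pac1-KO these were 8.80 and 3.52. The next genes were Junb, an AP-1 subunit (0.422 and 0.422), Rora (0.419 and 0.453), the kinase gene Pim1 (0.413 and 0.472) and Hilpda, a lipid droplet protein (0.406 and 0.472). Zfp36l1, an mRNA decay factor, Vps37b, an ESCRT-I subunit, Nr4a3, Rel, an NF-kB subunit, and Rgs2, a regulator of G protein signalling, completed the first 10, all with r of at least 0.362 in both libraries.

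Nr4a2 had weaker companions, led by the other members of its family. Its r was 0.308 in WT and 0.364 in Pac1-KO with Nr4a1, and 0.276 and 0.285 with Nr4a3. Junb, Vps37b, Rora, Nfkbia, Pim1, Fosl2, Nfkbiz and Zfp36l1 followed, with r between 0.218 and 0.250 in WT and between 0.268 and 0.327 in Pac1-KO. For Nr4a3 the first genes were Rora (0.393 and 0.399), Hilpda (0.388 and 0.424), Nr4a1 and Vps37b (0.385 and 0.361), then Rel, Nfkb1, Crem, Rgs2, Sub1 and Dennd4a. Crem encodes a transcription factor that cAMP itself induces. WT barcodes with Nr4a3 had a mean of 1.21 Crem UMIs per 2000 and those without 0.444, and the Pac1-KO means were 0.812 and 0.238.

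The genes with the lowest r were largely the same for each member. Tmsb4x, encoding the actin-binding thymosin β4, and Actb were among the 3 lowest genes of every member, with r between −0.239 and −0.121. The remaining gene was Txnip, an inhibitor of thioredoxin, for Nr4a1 (−0.176 and −0.179) and Nr4a3 (−0.143 and −0.162), and Sh3bgrl3 for Nr4a2. Genes with r of at least 0.1 in both libraries made up 4.54% of genes for Nr4a1, 2.02% for Nr4a2 and 5.02% for Nr4a3. Barcodes rich in Nr4a UMIs spread their 2000 UMIs over fewer genes: r with the number of genes detected after thinning lay between −0.374 and −0.138 over members and libraries. With log10 depth before thinning r lay between 0.141 and 0.252, and with the mitochondrial share between −0.124 and −0.0511. The part of these in the gene correlations was not tested.

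**Figure D4:**
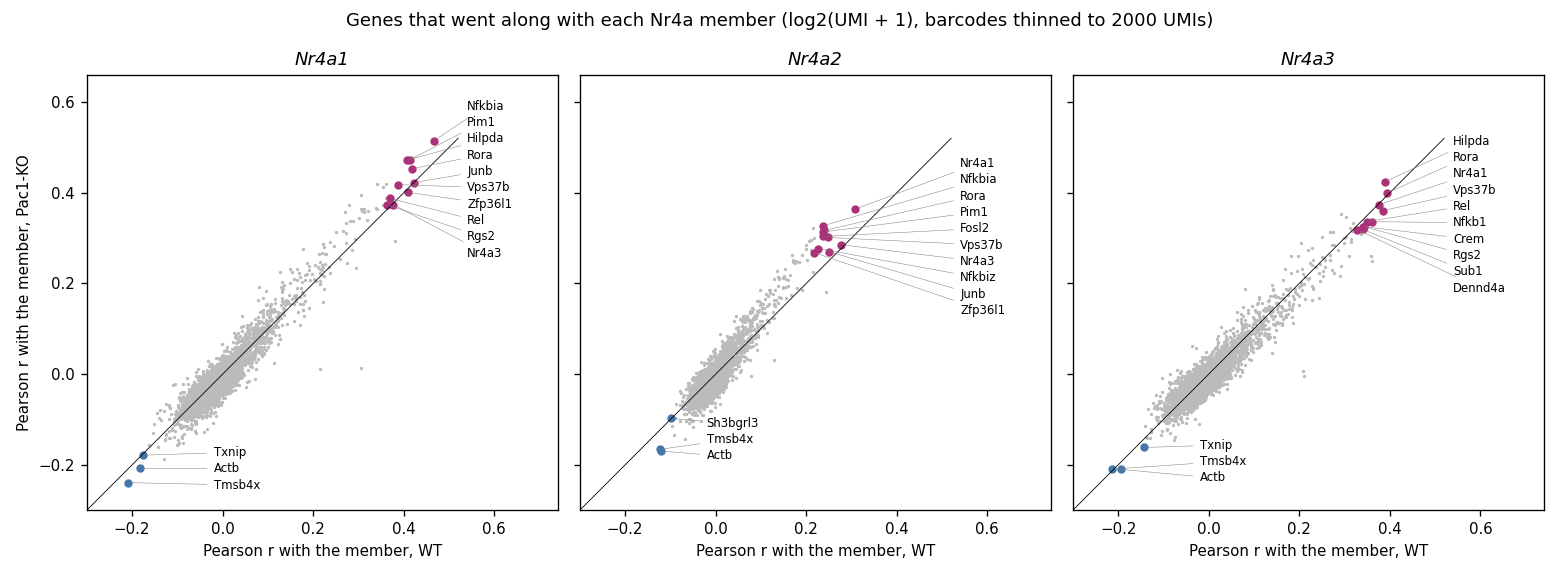
Pearson r of each of 4005 genes with Nr4a1, Nr4a2 and Nr4a3 over thinned barcodes, WT on the x axis and Pac1-KO on the y axis; the line marks equal r. The 10 leading genes (magenta) and the 3 lowest (blue) lie near the line, and 2 grey points for Nr4a1 and Nr4a3 lie far below it.

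The companion lists overlapped between members. Of the first 50 genes, Nr4a1 and Nr4a2 shared 44 (88%), Nr4a2 and Nr4a3 35 (70%) and Nr4a1 and Nr4a3 34 (68%), and 32 (64%) were on all 3 lists. Between WT and Pac1-KO the first 50 of a member shared 41 to 44. Some genes ranked far apart for Nr4a1 and Nr4a3. Nfkbia was at rank 1 for Nr4a1 and 71 for Nr4a3 (r of 0.182 in WT and 0.261 in Pac1-KO), and Tnfaip3, encoding the NF-kB inhibitor A20, was at 13 and 81. In the opposite direction Crem was at rank 7 for Nr4a3 and 52 for Nr4a1, the type 2 cytokine gene Il5 at 21 and 78, and Ell2, an elongation factor, at 16 and 91. These genes were picked for the size of that difference in rank and their values are a description.

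Lists of signalling genes were read the same way. The lists share genes, so their counts are not independent. Egr2 and Egr3 are both immediate-early and calcium and NFAT genes, and Fosl2 is both an immediate-early and a cAMP gene. Calca, from the cAMP list, and Il2, from the calcium list, are also on the effector list. Of 12 cAMP and CGRP response genes, 10 lay below the median gene in Pac1-KO, with a median of −0.63, and 8 of these were lower by over 1.5-fold against the 12.8% of all genes. Crem stood at 451 CPM in WT and 222 in Pac1-KO (−1.21 relative to the median gene), and Gpr65, a proton-sensing receptor that raises cAMP, at 407 and 155 CPM (−1.58). Of the 11 of these genes that passed the 5% floor, 8 had r of at least 0.1 with Nr4a1 in both libraries, 4 with Nr4a2 and 7 with Nr4a3, against 4.54%, 2.02% and 5.02% of all genes. Calcrl and Ramp1, which encode the CGRP receptor, are also on this list, and Calcrl was 1 of the 8 lower genes. Calcrl stood at 178 CPM in WT and 95.8 CPM in Pac1-KO (−1.08), and Ramp1 at 253 and 313 CPM (0.12). Both had r between −0.12 and 0.00 with all 3 members.

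The other immediate-early genes were divided. Of 18 such genes 12 lay above the median gene in Pac1-KO and 6 below, with a median of 0.05, and 4 were lower by over 1.5-fold, where all genes gave 12.8%. These 4 were Egr2 at −1.20 relative to the median gene, Egr3 at −0.74, Fosl2 at −0.69 and Atf3 at −0.66. Fos stood at 2560.3 CPM in WT and 2959.8 in Pac1-KO and Junb at 4219.6 and 4877 CPM, while Egr1 (219 and 173 CPM) lay below by less than 1.5-fold. Of 16 compared for correlation, 10 had r of at least 0.1 with Nr4a1 in both libraries (4.54% of all genes), 6 with Nr4a2 (2.02%) and 4 with Nr4a3 (5.02%). With Nr4a3, Jun had r of −0.11 in WT and −0.07 in Pac1-KO, and Egr1 had −0.04 and −0.00. Fosb had r of 0.22 and 0.28 with Nr4a1 and 0.05 and 0.09 with Nr4a3. Of 11 calcium and NFAT response genes compared, 10 lay below the median gene (median −0.55). Lower by over 1.5-fold were 4, among them Egr2 and Egr3 already counted above, against the 12.8% of all genes. Of the 7 found in enough barcodes, 0 reached r of 0.1 in both libraries with any member, which at 2.02% to 5.02% of all genes is too short a list to read. Of 10 heat shock genes 8 lay above the median gene, with a median of 0.16, and 1 was higher by over 1.5-fold, near the 8.2% of all genes. This was Hspa1a, with 503 CPM in WT and 1000.3 CPM in Pac1-KO, and 0 of 10 reached r of 0.1 in both libraries with a member, a count that is likewise near the share of all genes.

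Effector genes went along with Nr4a1 and Nr4a3. Of 9 ILC2 effector genes compared, 7 lay below the median gene in Pac1-KO, with a median of −0.38. By over 1.5-fold 2 were lower (Il5 and Calca) and 1, Il17a, higher, where all genes gave 12.8% and 8.2%. Of 6 found in enough barcodes, 5 had r of at least 0.1 in both libraries with Nr4a1, 2 with Nr4a2 and 5 with Nr4a3, where all genes gave 4.54%, 2.02% and 5.02%. Areg (amphiregulin) had r of 0.31 and 0.36 with Nr4a1, Csf2 (GM-CSF) 0.31 and 0.36, and Il5 0.17 and 0.20, whereas Il5 had 0.30 and 0.29 with Nr4a3. The other gene was Il2, with r between −0.03 and 0.07 for all 3 members. Of 7 inhibitory receptor and exhaustion genes compared for level, 5 lay below the median gene, with a median of −0.80. By over 1.5-fold 4 were lower and 1 higher, where all genes gave 12.8% and 8.2%. The higher one was Tox2, with 30 UMIs in WT and 56 in Pac1-KO. Of 3 such genes in enough barcodes, Pdcd1, encoding PD-1, had r of 0.12 and 0.12 with Nr4a1 and 0.14 and 0.19 with Nr4a3. Tox was at 0.02 or less, and Cd200r1 was between −0.04 and −0.00 with all 3 members. With r of at least 0.1 in both libraries there was thus 1 of 3 for Nr4a1, 0 for Nr4a2 and 1 for Nr4a3, too short a list to set against the share of all genes.

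Barcodes were also split by a UMI of a state gene, and for Il5, Crem, Calca and Il13 the gap was wider for Nr4a3 than for Nr4a1 or Nr4a2 in both libraries. In WT, Nr4a3 was found in 62.7% (60.9 to 64.5) of barcodes with Il5 and 38.7% (37.3 to 40.1) of those without, and in Pac1-KO in 51.2% and 23.6%. With Crem it was found in 67.3% (65.6 to 69.1) against 36.3% in WT and 53.8% against 23.1% in Pac1-KO. Calca, which encodes CGRP, gave 62.6% against 40.0% and 47.6% against 24.0%. The second type 2 cytokine gene, Il13, gave 66.0% against 44.3% and 54.9% against 26.8%. Barcodes with Il2 did not follow this pattern: Nr4a3 was found in 41.9% (38.3 to 45.7) of them and 48.5% of the others in WT, and in 31.2% and 29.7% in Pac1-KO. Txnip, which stood among the lowest genes above, marked barcodes with less Nr4a3, 37.7% against 51.8% in WT and 22.0% against 35.2% in Pac1-KO.

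For Nr4a1 the widest gaps in both libraries were those of Atf3, a stress-response factor, and Fosb, an AP-1 subunit. It was found in 91.2% of WT barcodes with Atf3 and 71.2% of those without, and in 83.8% and 52.1% in Pac1-KO. Barcodes with Fosb had it in 83.2% against 58.7% in WT and 66.6% against 35.9% in Pac1-KO. Nr4a2 showed gaps of the same direction, 55.7% against 35.4% for Atf3 in WT and 52.0% against 25.2% in Pac1-KO. Actn2-positive Pac1-KO barcodes had Nr4a1 in 42.2% (34.1 to 50.6; n = 147) against 63.9% of the rest, while in WT the shares were 77.7% (n = 300) and 80.4%. The 301 WT barcodes with a UMI of Dusp2 itself had Nr4a1 in 87.0% (82.7 to 90.6) against 80.0%, and Nr4a3 in 43.2% (37.5 to 49.0) against 48.1%.

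The genotype difference was also read within these splits, which reuse the same barcodes and are not independent of each other. For a rare gene the barcodes without it are nearly the whole library (7426 of 7480 in WT for Mki67). That side then repeats the difference over all barcodes. For the 18 state genes found in at least 50 barcodes of both libraries, the mean of Nr4a1 and that of Nr4a3 was lower in Pac1-KO among the barcodes with the gene and among those without it, 18 of 18 in each case. For Nr4a2 this held for 18 of 18 without the gene and 16 of 18 with it, where the exceptions were Cxcl1 at a log2 ratio of 0.08 and Atf3 at 0.00. Among barcodes with Il13 the log2 ratios were −0.37 for Nr4a1, −0.06 for Nr4a2 and −0.45 for Nr4a3, and among those without it −0.81, −0.39 and −1.06.

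Read by the number of members found, from 0 to 3, 8 of the 20 state genes (Il5, Il13, Calca, Cxcl1, Crem, Gpr65, Atf3 and Il18r1) were found in a larger share of barcodes at each step in both libraries, and 1, Txnip, in a smaller share. Crem was found in 12.9%, 24.0%, 44.7% and 53.9% of WT barcodes with 0, 1, 2 and 3 members, and in 6.73%, 18.3%, 31.4% and 42.2% of Pac1-KO barcodes. Atf3 went from 14.1% to 64.2% in WT and from 10.8% to 63.4% in Pac1-KO, and the intervals of the libraries overlapped at each number. Gpr65 did not: with all 3 members 56.3% of the WT barcodes and 35.6% of the Pac1-KO ones had it, and with none 31.5% and 17.1%. Il13 reached 23.6% in WT and 24.7% in Pac1-KO with all 3. Txnip went down from 44.1% to 21.5% in WT and from 52.5% to 27.1% in Pac1-KO. Hspa1a was at 24.1%, 29.8%, 28.5% and 27.2% in WT and at 36.3%, 42.4%, 40.4% and 36.1% in Pac1-KO. Lgals3, encoding galectin-3, lay between 1.19% and 3.22% in WT and between 11.3% and 16.7% in Pac1-KO over the 4 numbers.

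**Figure D5:**
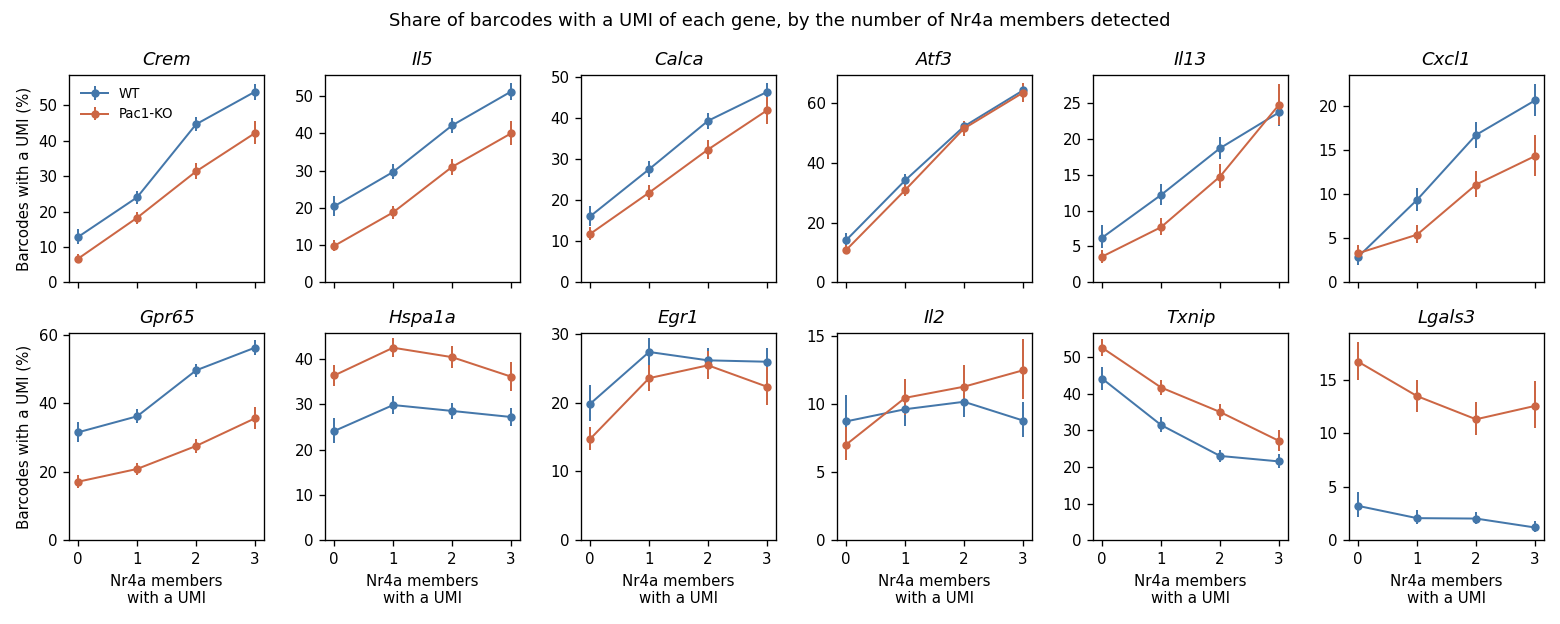
Share of thinned barcodes (%) with a UMI of each of 12 state genes, by the number of Nr4a members with a UMI in the same barcode (0 to 3), in WT and Pac1-KO; points are shares and bars exact 95% intervals. Crem, Il5, Calca, Atf3, Il13, Cxcl1 and Gpr65 go up with the number of members and Txnip goes down in both libraries.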

How the data were processed

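Libraries came from a 10x Genomics 3′ droplet kit. The authors deposited UMI counts that were not normalized, in 1 matrix per library, made with Cell Ranger (6.1.1 in the submitters' processing notes, 4.0.0 in the file header) against mm10; the annotation release and the limits of the study's own cell filter were not given in the sources used here. Computation used numpy 2.4.6, matplotlib 3.10.9, pandas 2.3.3 and scipy 1.17.1 under Python 3.11.15. Passing barcodes had at least 500 genes and at most 10% mitochondrial UMIs, and doublets were not removed. UMIs were summed per library and divided by the passing total to give CPM with exact Poisson intervals. Ratios carry exact conditional binomial intervals and shares Clopper-Pearson intervals, all at 95%. For shares, co-detection and correlations each barcode was thinned once to 2000 UMIs, and 914 WT and 617 Pac1-KO shallower barcodes were left out. Genes named for each member were the 10 with the highest value of the lower library correlation and the 3 with the lowest value of the higher one, besides genes of the lists. The functions were tested on simulated data. Members, lists and alternatives were chosen with earlier results of these data known. Promoters came from RefSeq and gene positions from GENCODE.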

Additional observations from a re-analysis of the deposited data

Results flagged for a closer look

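Barcodes with under 500 genes were outside the filter used for the report, entered in part only when at least 300 genes were asked for, and also carried Nr4a transcripts. In the 2403 such WT barcodes (median 596 UMIs) Nr4a1 stood at 1381 CPM, Nr4a2 at 405 CPM and Nr4a3 at 609 CPM, each above 0 and below its level in passing WT barcodes. In the 2110 Pac1-KO barcodes (median 579 UMIs) the levels were 763 CPM for Nr4a1, 289.8 CPM for Nr4a2 and 319.7 CPM for Nr4a3, again below those of the passing barcodes and below the WT values. Among these Pac1-KO barcodes Nr4a3 stood above Nr4a2, the reverse of the passing ones. Their intervals overlapped (290 to 351 CPM and 262 to 320 CPM). No reason for these levels was tested.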

How the results depend on the processing

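Single shares and companion counts have no direction that could turn. None of the other values, out of 247 alternative values computed in all, turned its direction. Of the 103 that concern ratios, differences of shares, co-detection of all 3 members and companions, 73 stayed within the main interval or count. No paired analysis was possible because each genotype had 1 library. Without barcodes over 2 times the median UMIs the log2 ratio was −0.71 for Nr4a1 and −0.38 for Nr4a2, the shares differed by −17.4 points for Nr4a1 and −16.1 for Nr4a3, and the ratio for all 3 members was 1.66 in WT and 2.54 in Pac1-KO. Without barcodes with 2 or more markers of another cell type the Nr4a2 ratio was −0.36 (−0.38 when only T cell markers counted, an alternative chosen after seeing the data) and the ratios for all 3 were 1.63 and 2.53. Relative to the median gene with at least 50 UMIs the log2 ratios were −0.92, −0.46 and −1.18, and with at least 10 UMIs −0.91, −0.45 and −1.17 for Nr4a1, Nr4a2 and Nr4a3. The mean of CPM over barcodes gave −0.35 for Nr4a2.

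Thinned to 1000 UMIs, the share in Pac1-KO minus WT was −17.8 points for Nr4a1, −6.35 for Nr4a2 and −15.3 for Nr4a3, and the ratios for all 3 were 1.67 and 2.74. At 3000 UMIs the differences were −15.4, −13.0 and −23.8 points and the ratios 1.31 and 1.94. Without thinning the differences were −9.02, −7.00 and −15.8 points. Of 5 other random thinnings, tried after seeing the data, all gave a larger difference for Nr4a3 (−19.0, −19.2, −19.9, −19.7 and −19.6 points), and the expectation over all thinnings was −19.3, against −18.1 in the thinning used. Equal depth, a single thinning and 1 library per genotype limit what these shares can show. The causes of these shifts were not tested.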

Other observations

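Among the genes ranked for correlation, 2 noncoding genes stood out after their values were seen because their r with Nr4a1 and Nr4a3 differed most between the libraries. For Nr4a2 the gene that differed most was Hilpda, with r of 0.214 in WT and 0.321 in Pac1-KO, followed by Gm43305 with 0.130 and 0.0316. Gm43305, on chromosome 14 (54292443 to 54297456, minus strand, GRCm38), had r of 0.305 with Nr4a1 and 0.209 with Nr4a3 in WT and 0.0146 and 0.00677 in Pac1-KO. Its level was 1316 CPM in WT and 69.5 CPM in Pac1-KO. Gm42031, on chromosome 8 (85125872 to 85132289, minus strand), had r of 0.215 with Nr4a1 and 0.210 with Nr4a3 in WT and 0.0122 and −0.00501 in Pac1-KO, with 709 and 84.8 CPM. Neither overlaps another annotated gene.

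Promoter windows with 4 or more TGACG half-sites, as in the 3 members, belonged to 36 other genes with at least 50 UMIs. Of these 27 lay below the median gene in Pac1-KO, with a median of −0.20, and 9 (25%) were lower by over 1.5-fold, among them Pak1, Ell2 and Ube2j1. Of all 9424 genes matched to a window 49.7% lay below the median gene and 11.7% were lower by over 1.5-fold. These shares were 51.0% and 11.2% for the 2188 genes with 1 half-site, and 49.5% and 10.6% for the 640 with 2. For the 140 genes with 3 they were 55.7% and 16.4%. Among the 302 genes with a full CRE the shares were 46.0% and 9.93%. The window count was chosen after the half-sites of the members were seen.

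In barcodes with at least 500 genes but over 10% mitochondrial UMIs, Nr4a2 stood at 956 CPM (784 to 1156) in the 69 WT barcodes and 480.5 CPM (425 to 541) in the 298 Pac1-KO barcodes, while Nr4a1 stood at 1064 and 747 CPM and Nr4a3 at 483 and 205 CPM. In passing barcodes of WT and Pac1-KO, Nr4a2 was at 506 and 419 CPM, Nr4a1 at 1882 and 1133 CPM and Nr4a3 at 706 and 355 CPM. Nr4a2 thus stood above Nr4a3 in the WT barcodes over 10% and below it in the passing WT barcodes.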
